A study of Mus musculus with 12 samples.

Results

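A set of 10 enzyme genes of glucose breakdown was followed through an immunoprecipitation of L1 ORF1p, the RNA-binding protein of the LINE-1 retrotransposon. They were taken as the gene rows named Hk1, Aldoa, Gapdh, Pgk1, Pgk2, Ldha, Ldhb, Ldhc, Pdha1 and Pdha2, 10 of the 20981 genes listed. Pgk2, Ldhc and Pdha2 are isoforms made in male germ cells. Pgk1, Ldha, Ldhb and Pdha1 are their somatic counterparts, and Hk1, Aldoa and Gapdh are general enzymes of the same pathway. The material was testis of Mael-/- mice of the C57BL/6 strain aged 3 months, so every group, controls included, carried the Mael mutation and no wild-type testis was compared. RNA-seq libraries of 4 kinds were made, with 3 libraries each and 12 in all. TOTAL was the clarified testis extract, to which EDTA had been added. INPUT was the pool of fractions 5 to 8 of a sucrose gradient of that extract. IP was the RNA recovered from INPUT with an antibody against LINE-1 ORF1p, and BO (beads only) was the RNA that stayed on beads without antibody.

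Glycolysis turns glucose into pyruvate, which lactate dehydrogenase interconverts with lactate and which the pyruvate dehydrogenase complex turns into acetyl-CoA. Pgk1 and Pdha1 lie on the X chromosome, which is silenced during meiosis in males. Their copies Pgk2 and Pdha2 arose by retroposition of a processed mRNA, lie on autosomes and are used in germ cells. Ldhc arose by gene duplication and encodes the lactate dehydrogenase of spermatocytes, spermatids and sperm. Maelstrom is needed to silence transposons in the male germ line, and mutant spermatocytes arrest in meiosis.

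The gene models show these origins. In GENCODE M21 on mm10, Pgk2 (chr17:40207015-40208640) and Pdha2 (chr3:141210004-141212355), both on the minus strand, have 1 exon, whereas Pgk1 (chrX:106187100-106203699, plus strand) and Pdha1 (chrX:160122209-160138413, minus strand) have 11 exons each. Ldhc (chr7:46861203-46878142) lies beside Ldha (chr7:46841475-46855627) on the same strand, and both have 8 exons. Ldhb lies on chromosome 6 (142490249-142507957, minus strand). The coding sequence of Pgk2 was 79.3% identical to that of Pgk1 over 1251 aligned bases, that of Pdha2 75.6% to Pdha1 over 1170, that of Ldhc 73.2% to Ldha over 996 and 64.8% to Ldhb over 993.

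The counts separate isoforms only where a read of 75 bases differs between them. The sequences below are, for each of 3 pairs, the 75 coding bases that are most alike among stretches lying within 1 exon of both genes, written 5′ to 3′ on the coding strand with mismatches between the isoforms in capitals. They are shown because they are the hardest such place for a read to be assigned. The 75 bases differed at 9 positions for Pgk2 and Pgk1 (mm10, chr17:40208123-40208197 minus, and chrX:106194698-106194772 plus):
Pgk2: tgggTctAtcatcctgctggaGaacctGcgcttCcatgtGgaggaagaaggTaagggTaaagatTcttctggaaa
Pgk1: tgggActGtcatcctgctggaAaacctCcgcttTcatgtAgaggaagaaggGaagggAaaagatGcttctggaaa
They differed at 9 positions for Pdha2 and Pdha1 (chr3:141211452-141211526 minus, and chrX:160132069-160132143 minus):
Pdha2: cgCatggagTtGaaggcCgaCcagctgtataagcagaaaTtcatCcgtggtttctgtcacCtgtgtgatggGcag
Pdha1: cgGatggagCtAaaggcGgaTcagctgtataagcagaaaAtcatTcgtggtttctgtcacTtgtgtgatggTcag
They differed at 13 positions for Ldhc and Ldha (chr7:46875714-46875788 plus, and chr7:46851915-46851989 plus):
Ldhc: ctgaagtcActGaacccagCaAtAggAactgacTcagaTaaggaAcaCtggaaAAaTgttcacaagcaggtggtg
Ldha: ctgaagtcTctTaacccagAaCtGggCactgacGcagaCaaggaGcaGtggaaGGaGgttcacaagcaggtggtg
Where a stretch could cross exon borders, the fewest mismatches were 5 for Pdha2 and Pdha1, 10 for Ldhc and Ldha, and 9 for Pgk2 and Pgk1, and the median stretch had 15 in the Pgk pair, 19 in the Pdha pair, 19 between Ldhc and Ldha and 26 between Ldhc and Ldhb.

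Reads of some somatic members can also come from other annotated genes. Of the 75-base windows of each gene's principal GENCODE transcript, 80.3% for Gapdh and 67.5% for Pgk1 were present in a transcript of another gene, with 121 such genes for Gapdh and 4 for Pgk1. The share was 16.7% for Ldhb, 13.9% for Pdha1, 5.38% for Ldha and at least 1.53% for Aldoa. The symbol Aldoa stands for 2 GENCODE genes, and windows shared between them were not counted. No window of Pgk2, Ldhc, Pdha2 or Hk1 was shared. Reads that map to several places were set apart from genes in these files, so the levels of Gapdh and Pgk1, and every comparison of them with another gene below, are uncertain. The shared windows of Pdha1 lie in Map3k15, which overlaps its 3′ end on the opposite strand, and whether strand was used in counting is not given in the sources used here.

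The files give 1 mean of normalized read counts per group and gene, scaled separately in each of 3 tables that pair IP with BO, INPUT or TOTAL. The reads of each IP library could be worked out, since every IP mean appears under 3 scalings. The 3 IP libraries, called X, Y and Z because they could not be matched to replicate numbers, held 21387454, 19754089 and 20549345 reads on genes. Over the 10263 genes whose mean in IP reached 100, the SD of log2 levels between the 3 libraries had a median of 0.19. BO, INPUT and TOTAL have no value per library, so no test over libraries of 2 groups was run here, and the deposited test columns were left aside. Differences are given as ratios of group means, with the spread of the IP libraries alone, beside a 2-fold limit and the share of all genes past it. Summed loci of the L1Md families, which are a part of mouse LINE-1, were 2.22-fold higher in IP than in BO. They were 2.64-fold higher than in INPUT and 2.47-fold higher than in TOTAL. Spermatocyte markers summed to 28910 in TOTAL and spermatid markers to 366, against 103024 for Sertoli cell markers and 95889 for Leydig cell markers, so the extract held RNA of germ cells and of somatic cells. In such bulk samples fewer cells of a type and less RNA per cell cannot be told apart.

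In the testis extract, the summed counts of the somatic enzymes far exceeded those of the germ-cell isoforms. Ldhb, the heart-type lactate dehydrogenase subunit, had a TOTAL mean of 7545 normalized counts, and Aldoa, which splits fructose bisphosphate, had 7529. Gapdh followed at 1841, Ldha, the muscle-type subunit, at 1481 and Pdha1, the E1 alpha subunit of pyruvate dehydrogenase, at 1416. Hexokinase Hk1 stood at 561 and phosphoglycerate kinase Pgk1 at 513. Ldhc had 405 normalized counts in TOTAL, Pdha2 313 and Pgk2 40.3. Together the 3 germ-cell isoforms made up 3.5% of the summed mean of the 10 genes in TOTAL, 5.13% in INPUT and 8.37% in BO. In IP they made up 34.7%, with Pdha2 alone at 25.5%.

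The order of levels per length differed accordingly. In TOTAL, Ldhb stood first with 5786 normalized counts per kilobase of its principal transcript and Aldoa second with 4983, while Ldhc had 296 and Pdha2 133. Per kilobase, Ldhc thus stood above the somatic genes Pgk1 (281) and Hk1 (146). In IP, scaled with TOTAL, Aldoa (1049 ± 206 per kilobase, SD over 3 libraries), Ldhb (1025 ± 213) and Pdha2 (914 ± 91.6) came first, and these neighbours did not differ beyond their spread. Ldhc followed at 540 ± 87.2. Pgk2 was last in both, at 24.8 per kilobase in TOTAL and 22.0 ± 3.87 in IP.

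**Figure D1:**
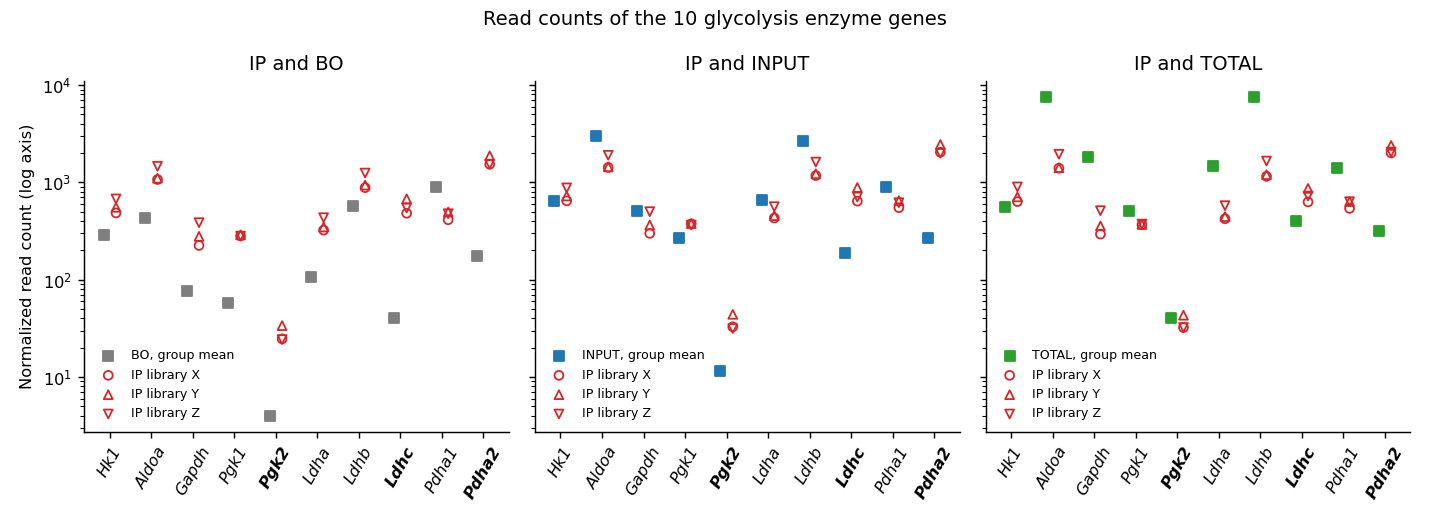
Normalized read counts (log axis) of the 10 genes in the 3 tables, with the mean of the other group as a square and the 3 IP libraries as open symbols. Germ-cell isoforms are in bold; in the table with TOTAL, Pdha2 was at 313 in TOTAL and between 2007 and 2397 in IP, while Ldhb was at 7545 in TOTAL and between 1154 and 1656 in IP.

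IP against TOTAL asks which RNAs were over- or under-represented with ORF1p relative to the whole extract. Pdha2 was the only member more than 2-fold higher in IP, and 5 somatic members were more than 2-fold lower: Ldha, Ldhb, Pdha1, Gapdh and Aldoa. Each of these 6 was past 2-fold in all 3 IP libraries. Of the 14666 genes tested, 20.6% were more than 2-fold higher in IP and 26.5% more than 2-fold lower by the group means, and 15.7% and 21.7% by all 3 IP libraries. The median gene had a log2 ratio of -0.03 and the median of the 10 members was -0.85.

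Pdha2, the testis E1 alpha subunit, had 2007, 2397 and 2045 normalized counts in IP libraries X, Y and Z, against a TOTAL mean of 313. All 3 libraries stood far above the TOTAL mean, by 6.87-fold at the group means (log2 2.78, SD 0.14 over 3 libraries). This ratio was at the 99.2 percentile of all genes. A total of 5701 reads in IP and at least 960 in TOTAL lie behind it, which gives a 95% exact counting interval of 2.68 to 2.88. Its X-linked parent Pdha1 had 540, 635 and 633 counts in IP against 1416 in TOTAL, so it was 2.35-fold lower in IP (log2 -1.23, SD 0.13). The libraries of both genes spread less than the median gene.

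Ldhc had 629, 867 and 723 normalized counts in the 3 IP libraries against 405 in TOTAL. Every library was above the TOTAL mean, but the ratio of 1.83 (log2 0.87, SD 0.23) stayed below 2-fold, and only library Y exceeded it. With means scaled to the summed gene counts its log2 ratio was 0.35. Ldha had 423, 445 and 576 counts in IP against 1481 in TOTAL, 3.08-fold lower in IP. Ldhb had 1154, 1200 and 1656 against 7545, 5.65-fold lower in IP (log2 -2.50, SD 0.29), the lowest ratio among the members.

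Pgk2 had 32.2, 43.1 and 32.2 normalized counts in IP against 40.3 in TOTAL. The TOTAL mean lay inside the range of the IP libraries, and the log2 ratio was -0.17 with a counting interval of -0.57 to 0.23. Only 95 IP reads carry this gene. Pgk1 had 368, 369 and 372 counts in IP against 513 in TOTAL (log2 -0.47), below TOTAL in all 3 libraries and with the smallest spread among the members.

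Among the general enzymes, Aldoa was 4.75-fold lower in IP than in TOTAL, with 1400, 1413 and 1944 counts against 7529. Gapdh was also 4.75-fold lower at the group means, with 294, 356 and 512 counts against 1841 and the widest spread among the members (SD 0.41 on the log2 scale). Hk1, with 634, 709 and 898 counts against 561, was 1.33-fold higher in IP. That direction turned with means scaled to the summed gene counts, where its log2 ratio was -0.10.

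**Figure D2:**
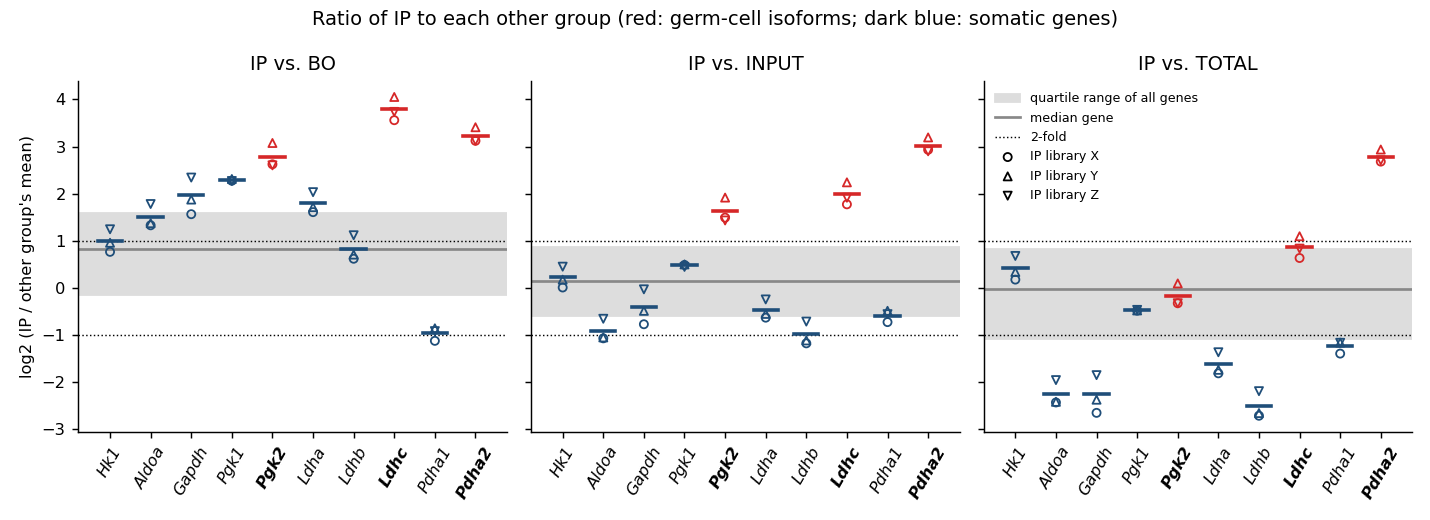
log2 ratio of IP to the mean of BO, INPUT or TOTAL for each member; bars are ratios of group means, open symbols the 3 IP libraries, and the gray band the range from the lower to the upper quartile of all genes, with a line at their median. In IP vs. INPUT the 3 germ-cell isoforms lie above the 2-fold line and the 7 somatic genes between 0.48 and -0.98.

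IP against INPUT compares the antibody's material with the gradient fractions it was drawn from. Here the 3 germ-cell isoforms were more than 2-fold higher in IP, in each of the 3 IP libraries, and none of the 7 somatic members was past 2-fold in either direction by the group means. Of 14400 genes tested, 20.7% were more than 2-fold higher by the group means and 14.9% more than 2-fold lower. By all 3 IP libraries, 15.4% were higher and 10.7% lower. The median gene stood at a log2 ratio of 0.15.

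Pdha2 had 2042, 2449 and 1997 counts in IP, scaled with INPUT, against an INPUT mean of 268. It was 8.08-fold higher in IP (log2 3.01, SD 0.16), at the 99.8 percentile of all genes. Ldhc had 641, 885 and 706 counts against 187, 3.97-fold higher (log2 1.99, SD 0.24), at the 96.4 percentile. Pgk2 had 32.8, 44.0 and 31.5 counts against 11.6, 3.10-fold higher (log2 1.63, SD 0.26). The INPUT mean of Pgk2 corresponds to between 36 and 47 reads over 3 libraries, and the counting interval ran from 1.06 to 2.23.

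The somatic genes lay closer to their INPUT means. Ldhb (log2 ratio -0.98) and Aldoa (-0.91) were nearest to the lower limit, and 2 of the 3 IP libraries, X and Y, were past it for both. Relative to the median gene both were past it (-1.14 and -1.06). With means scaled to the summed gene counts both were past it too, as was Pdha1 (-1.12). Pdha1 was at -0.58, Ldha at -0.46 and Gapdh at -0.39, each below the INPUT mean in all 3 libraries. Pgk1 at 0.48 and Hk1 at 0.23 were above INPUT in all 3 libraries, but both turned to lower with means scaled to the summed gene counts (-0.05 and -0.31), and Hk1 also with upper quartile scaling (-0.08).

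IP against BO sets the antibody's material against RNA held by the beads. A total of 8 members were more than 2-fold higher in IP and none more than 2-fold lower, while 44.4% of 13634 genes tested were higher and 11.4% lower. In each of the 3 IP libraries, 7 members were more than 2-fold higher, against 36.8% of genes, and none more than 2-fold lower, against 9.16%. The median gene was itself higher in IP by 0.82 on the log2 scale. Relative to that median, 5 members were more than 2-fold higher, namely Ldhc, Pdha2, Pgk2, Pgk1 and Gapdh, against 18.8% of all genes, and 1, Pdha1, was more than 2-fold lower, against 24.4%. Pgk2 reached the minimum count only through IP, where it is high, so its place in these counts was set by that minimum. With an average mean of at least 100, which leaves out Pgk2 alone of the members, 7 members were more than 2-fold higher than BO by the group means. The share of all genes at that minimum was not computed, so no excess of members is read from this count.

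Ldhc had 481, 677 and 544 counts in IP, scaled with BO, against a BO mean of 40.8. It was 13.9-fold higher in IP (log2 3.80, SD 0.25), the highest ratio among the members and at the 99.6 percentile of all genes. Pdha2 had 1534, 1873 and 1539 counts against 176, 9.36-fold higher (log2 3.23, SD 0.17). Pgk2 had 24.6, 33.7 and 24.2 counts against 3.99, 6.89-fold higher (log2 2.78, SD 0.27). The BO mean of Pgk2 rests on 8 to 16 reads over 3 libraries, and the counting interval of its log2 ratio was 1.75 to 4.04.

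Among the somatic genes, Pgk1 was 4.88-fold higher in IP than in BO, Gapdh 3.90-fold, Ldha 3.48-fold and Aldoa 2.85-fold. Hk1 lay at the limit with 2.01-fold, and 2 of its 3 libraries, X and Y, were below 2-fold. Ldhb was 1.78-fold higher, at the 50.3 percentile and so next to the median gene. Pdha1 had 413, 496 and 476 counts in IP against 897 in BO. Pdha1 was the only member below its BO mean, by 1.94-fold (log2 -0.96, SD 0.14), and it passed 2-fold when library Y was left out (-1.01). Map3k15, which overlaps it, went the other way, with 807 counts in IP and 190 in BO; the part of these overlapping reads in the result was not tested.

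In the ratio of a germ-cell isoform to its somatic counterpart, a factor applied to a whole library cancels within that library. A factor applied to a whole group mean cancels in the ratio of group means. Factors of single libraries weight the group means and do not fully cancel there. Pdha2 over Pdha1 was 0.22 in TOTAL, 0.30 in INPUT and 0.20 in BO, and 3.72, 3.78 and 3.23 in the 3 IP libraries. The order of the 2 isoforms was thus inverted, and the ratio in IP was 16.1-fold that in TOTAL, 12.1-fold that in INPUT and 18.2-fold that in BO. The SD over the 3 IP libraries was 0.12 on the log2 scale, against a log2 difference of 4.01 from TOTAL.

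Ldhc over Ldha was 0.27 in TOTAL, 0.28 in INPUT and 0.39 in BO, and 1.49, 1.95 and 1.255 in the 3 IP libraries. Every IP library held more Ldhc than Ldha, and every other group less. The ratio in IP was 5.62-fold that in TOTAL and 5.48-fold that in INPUT, and the lowest IP library stood above BO as well. Against Ldhb, Ldhc was 0.054 in TOTAL and 0.55, 0.72 and 0.44 in IP, 10.3-fold above TOTAL at the group means, but Ldhb stayed the more abundant in all 4 groups.

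Pgk2 over Pgk1 was 0.078 in TOTAL, 0.044 in INPUT and 0.069 in BO, and 0.088, 0.117 and 0.087 in the 3 IP libraries. All 3 IP libraries were above each other group's ratio, yet the log2 difference from TOTAL was 0.30 and that from BO 0.50, against an SD of 0.24 over the IP libraries. From INPUT it was 1.15. With 10 counts added to every mean, the difference from BO turned to -0.68 and that from INPUT was 0.63. The listed count of Pgk1 was the higher of the pair in all 4 groups, and is itself uncertain, since 67.5% of its windows are shared with other genes.

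**Figure D3:**
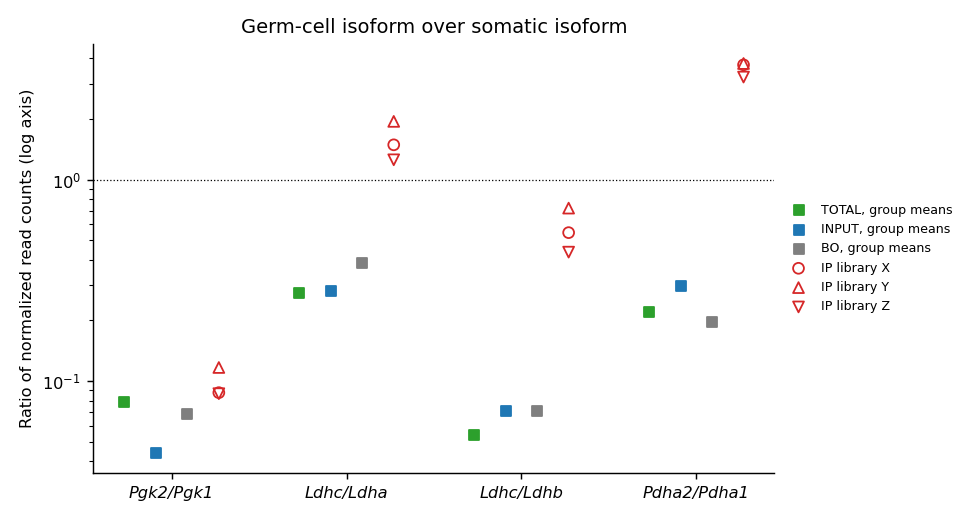
Ratio of normalized read counts of the germ-cell isoform to the somatic isoform (log axis) for 4 pairs, in the group means of TOTAL, INPUT and BO (squares) and in the 3 IP libraries (open symbols). Pdha2/Pdha1 and Ldhc/Ldha lie above 1, the dotted line, in IP and below it elsewhere.

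Pdha2 and Pgk2 were set beside 6 further autosomal retrocopies of X-linked genes used in germ cells. In IP against TOTAL, the log2 ratio of the retrocopy exceeded that of its parent in 5 of 8 pairs, with a median difference of 0.34. The difference was 4.30 for Rpl10l, a copy of ribosomal protein gene Rpl10 (84.9% of whose own windows are shared with other genes), 4.01 for Pdha2, 2.05 for Utp14b and 0.30 for Pgk2. It was -0.65 for centrin gene Cetn1. It was -0.55 for Cstf2t and -0.10 for Tktl2, and 0.37 for Rbmxl2. Against INPUT the difference was above 0 in the same 5 of 8 pairs. Against BO it was above 0 in 5 of 8 as well, but Cetn1 and Pgk2 are among them. Both reached the minimum count against BO only through IP, where they are high, so their differences and the tally against BO are not read. For Utp14b the difference against BO was -0.67. These comparisons share the IP libraries.

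The other glycolysis and pyruvate genes included some past 2-fold in each direction, at shares given here beside those of all genes. The list, chosen with earlier results of these data known, holds 42 genes besides the members, 35 of which had enough counts in IP and TOTAL. Of these, 4 were more than 2-fold higher in IP (20.6% of all genes were) and 9 more than 2-fold lower (26.5% of all genes), and the median log2 ratio was -0.34. With the members included, 5 genes were higher, but only 2 with means scaled to the summed gene counts. Among list genes whose average of both means reached 100, Tpi1, triose phosphate isomerase, was lowest at -2.90, with a mean of 234 in IP and 1753 in TOTAL. Pfkp, a phosphofructokinase, stood at 1.66, the highest of these after Pdha2, with 601 in IP and 191 in TOTAL. The E3 subunit gene Dld and the E2 subunit gene Dlat of the pyruvate dehydrogenase complex were 2.77-fold and 2.20-fold higher in IP, and the E1 beta gene Pdhb, the partner of Pdha1 and Pdha2, was 1.28-fold higher. Pdhx, the E3 binding protein gene of the complex, was at 1.03-fold. The 9 lower genes include Pgam2, a muscle phosphoglycerate mutase, with 3.06 counts in IP (8 reads in all) and 25.6 in TOTAL; it reached the minimum count only through TOTAL, so its ratio is not read. Against INPUT, 7 of 33 were more than 2-fold higher (20.7% of all genes) and 4 lower (14.9%). Against BO, 19 of 32 were higher (44.4% of all genes) and 3 lower (11.4%).

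Further testis isoforms of the pathway were scarce. Eno4, an enolase of sperm, had a mean of 114 in IP and 61.0 in TOTAL (log2 ratio 0.90), and Ldhal6b, a lactate dehydrogenase retrocopy, had 73.7 and 46.8 (0.66). All windows of Ldhal6b were shared with another annotated gene. Against INPUT, Eno4 was 1.55-fold and Ldhal6b 2.70-fold higher in IP, and against BO 4.39-fold and 3.75-fold. Aldoart2, an aldolase retrocopy, had 14.3 in IP and 15.2 in TOTAL, while its means were 2.69 in BO and 2.21 in INPUT, with 37 reads in IP and 7 to 9 in INPUT. Gapdhs, the sperm form of Gapdh, was at 7.41 in TOTAL and at 1.36 in IP, where 4 reads in all carried it, and Aldoart1 was at 12.6 and 0.818, on 2 reads in IP.

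**Figure D4:**
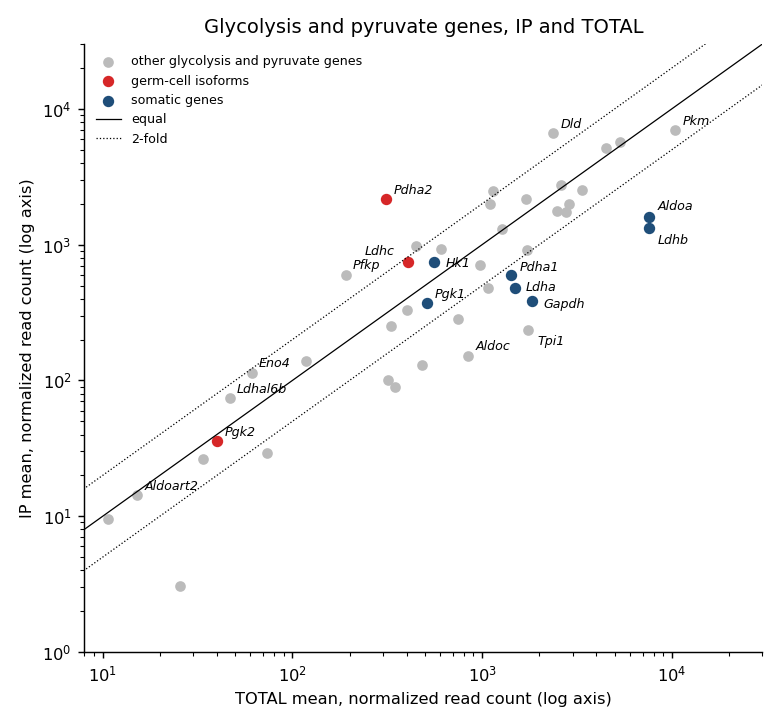
Mean normalized read count in IP against TOTAL (log axes) for the 45 glycolysis and pyruvate genes with enough counts; the solid line marks equal means and the dotted lines 2-fold. Pdha2 lies above the upper line, and Ldhb, Aldoa, Gapdh, Ldha and Pdha1 below the lower one.

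Levels of cell type markers also differed between the groups. Against TOTAL, where 20.6% of all genes were more than 2-fold higher in IP and 26.5% lower, 9 of 11 spermatocyte markers were higher, with a median log2 ratio of 2.28, and none was lower. Their summed level was 168292 in IP and 28910 in TOTAL. Of 10 Sertoli cell markers, 8 were lower, and all 8 Leydig cell markers were, with summed levels of 31119 against 103024 and 17139 against 95889. Of 8 spermatogonia markers, 2 were lower and none higher, a share lower that is near that of all genes, with a median of -0.53. Of 8 markers of peritubular, vessel and macrophage cells, 5 were lower and none higher. Spermatid markers summed to 258 in IP and 366 in TOTAL; few reached the minimum count, most of those only through TOTAL, so their calls are not read.

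Against INPUT, where all 3 germ-cell isoforms were past 2-fold, 9 of 11 spermatocyte markers were more than 2-fold higher in IP, with a median of 1.82, beside 20.7% of all genes. Their sum was 169188 in IP and 34237 in INPUT. Lower, beside 14.9% of all genes, were 6 of 10 Sertoli cell markers (sums of 31194 and 108400), 7 of 8 Leydig cell markers (17179 and 48815), 6 of 8 peritubular, vessel and macrophage markers and 1 of 8 spermatogonia markers. None of these 4 lists had a marker more than 2-fold higher.

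Against BO, beside 44.4% of all genes higher and 11.4% lower, 9 of 11 spermatocyte markers were more than 2-fold higher in IP and none lower. The 9 include Spata16, with means of 7.18 in BO and 54.1 in IP. It reached the minimum count only through IP, where it is high, so its call is not read. Of Sertoli cell markers 3 of 10 were lower and none higher, and of Leydig cell markers 2 of 8 were higher and 2 lower. Spermatogonia markers had 2 of 8 higher and 3 lower, and peritubular, vessel and macrophage markers 4 of 7 higher and none lower. The 4 include Cd68, with means of 6.67 in BO and 18.2 in IP, which also reached the minimum count only through IP, so its call is not read. The part of these marker differences in the isoform ratios was not tested.

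The 3 IP libraries also differed among themselves, given here in the scaling with TOTAL. Ldhc, Pdha2 and Pgk2 were highest in library Y, at 1.17, 1.12 and 1.20 times their mean over the 3 libraries, while Pdha1 was at 1.05 in both Y and Z. Pgk2 rests on only 33, 37 and 25 reads in X, Y and Z, so its highest library is not settled. Hk1, Ldha, Ldhb, Aldoa and Gapdh were highest in library Z, at 1.20 to 1.32 times their mean. Pgk1 lay between 0.99 and 1.01 in all 3. Scaled with INPUT it had 374.5, 377.2 and 363.6 counts in X, Y and Z, so which library is highest can depend on the scaling. Of the same 10263 genes, 72.8% were highest in library Z and 20.9% in library Y. Summed spermatocyte markers were highest in Y at 1.14 times their mean, and summed Sertoli and Leydig cell markers in Z, both at 1.20. Taken singly, 7 of 11 spermatocyte markers were highest in Y, 3 in Z and 1 in X. In Z were 9 of 10 Sertoli and 7 of 8 Leydig cell markers. Summed spermatogonia markers were highest in Z too, with 5290 against 3821 in X and 4281 in Y.

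**Figure D5:**
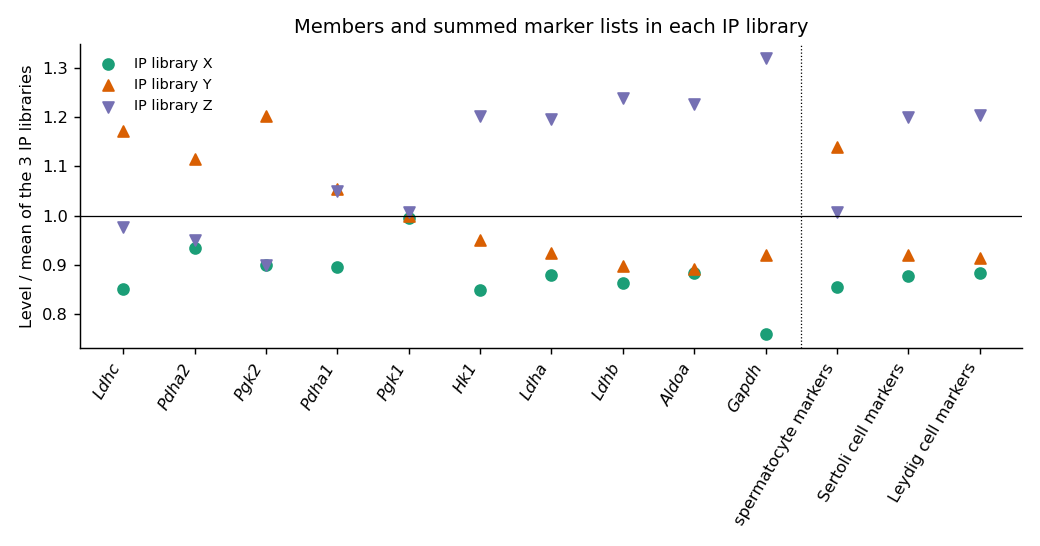
Level of each member, and summed level of 3 marker lists, in each IP library relative to the mean of the 3 libraries. Values are scaled with TOTAL. The 3 germ-cell isoforms and the summed spermatocyte markers are highest in library Y, with few reads behind Pgk2. The Sertoli and Leydig cell markers and Hk1, Ldha, Ldhb, Aldoa and Gapdh are highest in library Z, and Pgk1 is nearly level.

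Some genes lay near a germ-cell isoform over the 3 ratios of IP to BO, INPUT and TOTAL. Among 9320 genes with enough counts, the nearest to Pdha2 by Euclidean distance on the log2 scale were Spdya (0.25), Hsp90aa1 (0.28) and Hormad1 (0.35). Spdya and Hormad1 encode proteins of meiotic chromosomes, and Hsp90aa1 is an HSP90 chaperone. Nearest to Ldhc were Fabp9 (0.30), a fatty acid binding protein of testis, 1110051M20Rik (0.34) and Smim8 (0.39). Against BO, the counting interval of the log2 ratio was 3.48 to 4.13 for Ldhc and 3.07 to 3.39 for Pdha2. For Ldhc this is wider than the distances, so which genes are nearest is not settled. The genes nearest to Pgk2 are not read. Its BO mean rests on 8 to 16 reads, and the counting interval of that log2 ratio, 1.75 to 4.04, is far wider than such distances.

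Transcript length, which the choice of genes did not use, was set beside these ratios. Apart from Hk1 with 3851 bases, their principal transcripts measured between 1304 and 2848 bases. The 4917 genes of that length range had a median log2 ratio of -0.39 in IP against TOTAL, with 13.9% more than 2-fold higher and 33.9% more than 2-fold lower, while against BO their median was 1.20. The median against INPUT was 0.17. Pdha2, with 2352 bases, and Ldhc, with 1370, were above the median of genes of this length in all 3 comparisons. Pgk2, with 1626 bases, was above it against INPUT and TOTAL. Its ratio to BO is not read here, since Pgk2 reached the minimum count there only through IP. Ldhb and Pdha1 were below it in all 3, and Pgk1, Ldha, Gapdh and Aldoa were above it against BO and below it against TOTAL. Against TOTAL, the counting intervals of Pgk2 (-0.57 to 0.23) and Pgk1 (-0.59 to -0.36) held the median of -0.39, so their side of it is not settled.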

How the data were processed

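Gene tables of 4 groups (IP, BO, INPUT and TOTAL, 3 libraries each) were analysed. Per the labels and the study's methods, libraries were stranded total RNA with rRNA depletion and 75-base single-end reads. They were made from less RNA in IP than in TOTAL and INPUT, and in BO from what the volume used for IP yielded. Mapping by the authors was to mm10 with STAR 2.6.0c, and they ran DESeq2 1.24.0 on IP against each other group. The deposited signal is the mean of normalized read counts per group, rounded to 3 decimals. The tables also hold the authors' fold changes, standard errors, statistics and p-values, which were not used. The gene annotation is not given in the sources used here. A separate table of repeat subfamilies, with 12 columns of library values, was not used.

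The 4 rows that name no gene (unmapped, multimapping, ambiguous and outside features) were left out; they made up 22.1% of the gene table sum in IP, 37.9% in BO, 30.5% in INPUT and 38.6% in TOTAL. Reads of each IP library were recovered from the 3 IP means per gene: all of 19151 genes with an IP mean above 0 were solved to whole reads within 0.25 of a read. Tested on reads simulated around the recovered ones, 100% of 13977 genes were recovered. Genes below a set minimum of simulated reads were not scored, so this test does not cover genes with a few reads. For other groups only bounds on reads follow, from what 1 read is worth in each library. Planned permutation tests over libraries were therefore not run.

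Ratios of group means were computed without a pseudocount for genes with an average of the 2 means of at least 10. A gene counted as past 2-fold above a log2 ratio of 1 or below -1. Counting intervals are 95% Clopper-Pearson, using the fewest reads possible in the other group, and cover counting error only. Lengths, coordinates and sequences are from GENCODE M21 (principal transcripts). Members were named throughout; further genes were named as testis isoforms of the list, as the 2 highest and 2 lowest pathway genes in IP against TOTAL with an average mean of at least 100, or as the 3 nearest patterns with the same minimum in each table. Dld, Dlat, Pdhb, Pdhx, Pgam2 and the overlapping Map3k15 were named after their values were seen. The members and gene lists were chosen with earlier results of these data known. Python 3.11.15, numpy 2.4.6 and scipy 1.17.1 were used.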

Additional observations from a re-analysis of the deposited data

How the results depend on the processing

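All alternatives were ratios of means, with no test. Shares of all genes were computed at the main setting and, against BO, with centring only. At the other settings the counts show how far each moved, and no excess over all genes is read. Against BO, the count of members more than 2-fold higher in IP was 8, and 5 with each comparison centred on the median gene and 5 with upper quartile scaling; the median gene's own ratio of 0.82 is what centring takes away. The count lower than BO was 0, and 1 with these scalings, with means scaled to summed gene counts and at 1.5-fold, and was 0 to 1 with an IP library left out. Against INPUT, the count lower was 2 with centring, 3 with summed counts, 2 with the upper quartile and 2 at 1.5-fold, and 0 to 2 with a library left out; the 2 came without library Z. Against TOTAL, 2 members were higher at 1.5-fold in place of 1. The count of 5 lower in IP than in TOTAL stayed within 1.5 times under all alternatives.

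Of the 52 glycolysis and pyruvate genes, 42 had enough counts against BO, 43 against INPUT and 45 against TOTAL. At the main setting, 44.4% of all genes were higher and 11.4% lower against BO. These shares were 20.7% and 14.9% against INPUT, and 20.6% were higher against TOTAL. With centring against BO they were 18.8% higher and 24.4% lower. Against BO, 27 list genes were more than 2-fold higher, and 16 with centring or the upper quartile. Those lower than BO numbered 3, and 7 with centring, 6 with summed counts, 7 with the upper quartile, 6 at 1.5-fold, 1 at 3-fold and 2 to 5 with a library left out (5 without library Z). Against INPUT, 10 were higher, and 6 with summed counts and at 3-fold. There 4 were lower, and 8 with centring, 13 with summed counts, 10 with the upper quartile, 11 at 1.5-fold, 1 at 3-fold and 4 to 7 with a library left out (7 without library Z). Against TOTAL, 5 were higher, and 2 with summed counts, 10 at 1.5-fold and 2 at 3-fold.

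Adding 1 count moved the log2 difference of Pgk2 over Pgk1 between IP and BO from 0.50 to 0.25, and adding 10 moved it to -0.68; between IP and INPUT, adding 10 moved it from 1.15 to 0.63. The few BO and INPUT reads of Pgk2 limit these values. The other pairs moved by less than 1 SD under these settings. Of 30 log2 ratios of members, 3 turned direction with summed counts and 1 with the upper quartile; none of 90 did with an IP library left out.

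Libraries of BO, INPUT and TOTAL could not be left out, since the files give their means only. No paired analysis was possible because the gene tables give group means, and the recovered IP libraries carry no replicate number.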
